A study of Mus musculus with 289 samples.

Results

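Collagens are the trimeric proteins of the extracellular matrix, and 28 of the 15019 genes in the deposited count table encode a collagen chain. They were taken by symbol, as every gene named Col with a chain number, except Col17a1, the hemidesmosomal collagen. The mice, of a mixed CBA and C57BL/6 strain, carried an Lrig1-EGFP-ires-CreERT2 allele together with a Rosa26-fl/STOP/fl-tdTomato reporter, so that Cre is driven by the Lrig1 locus and a topical dose of hydroxytamoxifen labels Lrig1+ stem cells and their descendants with tomato. All groups carried these alleles and received that dose on the tail skin, and the cells were labelled t0. The treated group then received PRT4165, which blocks the ubiquitin ligases Ring1a and Ring1b of the Polycomb complex PRC1. The control group received vehicle, whose label carries the letters AC. The treatment labels of the groups also differ by a code that is not explained. What this code stands for cannot be told apart from the treatment. Tomato-positive epidermal cells were sorted singly and sequenced with a modified Smart-seq2 protocol, which reads full-length cDNA and has no molecular identifiers. The 289 cells lay on 4 plates, 2 per treatment, and 274 passed the filters on genes and mitochondrial counts, with 70 and 55 cells on vehicle plates 1 and 2 and 72 and 77 on PRT4165 plates 1 and 2. The plate was the replicate. Neither the age of the mice nor the number of mice on each plate is given in the labels, so p-values measured only the spread between plates.

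In skin, collagens are built by several cell types. Dermal fibroblasts make most of the fibrillar collagens, and basal keratinocytes, which rest on the basement membrane, contribute type IV collagen to its sheet, type VII collagen to the anchoring fibrils below it and type XVIII collagen at its dermal face. Each collagen molecule is a trimer, so several chains work only together with a partner chain, and procollagen is hydroxylated and folded in the endoplasmic reticulum by a shared set of enzymes and chaperones.

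The labels call the cells keratinocytes, and their markers were present. Of 274 cells, 264 had at least 10 CPM, the counts scaled to one common total, of at least 3 of 6 epithelial markers. Plates held between 2.58e+07 and 4.16e+07 counts over the kept cells, and the median cell of a plate held between 141985 and 538754 counts. Fibroblasts were sought with 10 markers that are no collagens, of which 5 (Pdgfra, Dcn, Lum, Fbln1 and Thy1) were in the table. Their summed level ran from 11.6 to 87.9 CPM over the plates, against 5007 to 9541 CPM for the epithelial markers. Lum was counted in 68 cells (24.8%), Fbln1 in 37 (13.5%), Dcn in 29 (10.6%), Thy1 in 26 (9.49%) and Pdgfra in 2. On PRT4165 plate 1, 1 cell reached 10 CPM of 3 fibroblast markers. This cell had 847 CPM of the desmosomal gene Dsp, under the summed level of 6181 CPM on that plate. Its keratins Krt5, Krt14 and Krt15 were also under the plate levels, with Krt5 at 49.8 against 288.1 CPM and Krt15 at 46.1 against 963.9 CPM. Its Dcn was above the plate level, at 350.5 against 78.8 CPM. The type of this cell was not tested. At least 1 fibroblast marker reached 10 CPM in 62 cells. Of the endothelial markers, Pecam1 was in the table, and it was counted in all 274 cells at 210 to 609 CPM. Of its values above 0, 97.8% were not whole, against 18.3% over the deposited file. The part of reads shared with other transcripts in this level was not tested.

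Most cells held some collagen RNA, but few collagens were found in many cells. At least 1 count of at least 1 collagen gene was found in 254 of 274 cells (92.7%), with a median of 3 collagen genes per cell and at most 11. Col4a3, a basement membrane chain best known from the kidney glomerulus, was counted in 72.6% of the 274 cells. Col18a1, the type XVIII basement membrane collagen, was counted in 98 cells (35.8%). Col12a1, a chain that binds the surface of collagen fibrils, was counted in 55 cells (20.1%). Between 10% and 20% of cells held Col5a2 (47 cells), Col4a2 (45), Col7a1 (44), Col4a5 (43), Col6a1 (39), Col16a1 (38), Col4a6 (33) and Col4a1 (31). The other 17 genes were counted in at most 22 cells each, and Col5a1, Col19a1 and Col9a3 in fewer than 5. Over all genes counted in at least 5 cells, the median gene was counted in 46 cells, and over the 25 collagens counted in at least 5 cells, in 21 cells.

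The chains of the main dermal collagen were scarce. Col1a1 was counted in 13 cells, of which 11 held the keratin Krt14, 6 the fibroblast marker Lum and 3 the fibroblast marker Dcn. Col1a2 was counted in 14 cells, of which 14 held Krt14, 7 Lum and 3 Dcn. Over all cells, Krt14 was counted in 93.1%, Lum in 24.8% and Dcn in 10.6%. The summed level of Col1a1 was 0.0776, 0.0576, 0.494 and 0.0962 CPM on vehicle plates 1 and 2 and PRT4165 plates 1 and 2. The highest Col1a1 value in any cell was 24.0 CPM. Col1a2 had no count on vehicle plate 1, which allows a share of up to 5.20% of its 70 cells with a count (upper 95% Wilson bound), and its levels on the other plates were 0.290, 3.15 and 0.849 CPM. The PRT4165 plate 1 cell with 3 fibroblast markers gave 68.4% of that plate's Col1a1 counts and 62.8% of its Col1a2 counts. Col3a1 is not analysed here.

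Detection of Col4a3 was wide but shallow. Of the cells that held it, 89 had 1 count and 50 had 2 counts after rounding, and 69.8% had no more than 2. Col18a1, in contrast, had a median of 7.5 counts in the cells that held it, and Col5a2, a chain of fibrillar type V collagen, a median of 24. Cells were then brought to the same depth by drawing 50000 non-mitochondrial counts from each, which left out the 28 shallowest. In these 246 thinned cells Col4a3 was found in 63 (25.6%) and Col18a1 in 62 (25.2%). Col12a1 followed with 39 cells (15.9%) and Col5a2 with 37 (15.04%). A second random thinning gave 72, 68, 36 and 39 cells for these 4 genes. The transcripts of Col4a3 share 5.08% of their 31-base words with other genes, and an antisense gene, C430014B12Rik, overlaps its exons. The counting is not stated to use strand, so reads of the pair cannot be told apart, and the part of either in the low counts of Col4a3 was not tested.

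**Figure D1:**
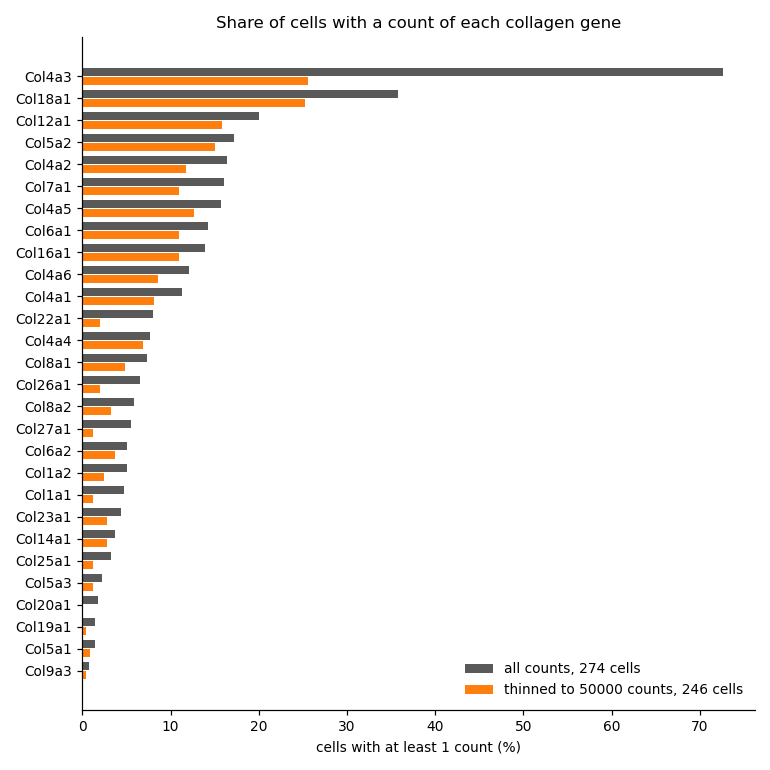
Share of cells (%, horizontal axis) with at least 1 count of each of the 28 collagen genes, with all counts (grey, 274 cells) and after thinning to 50000 counts per cell (orange, 246 cells). The bar of Col4a3 drops from 72.6% to 25.6%, level with Col18a1 at 25.2%.

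The counts of most collagens came from few cells. For Col4a3, 2 cells of PRT4165 plate 1 held 3015 and 2218 counts, the top cell gave 43.7% of all counts of the gene, and the top 5 cells gave 88.1%. Both of these cells also held the partner chain Col4a4, with 486 counts in the first. Of Col5a2, 2 cells gave over 50% of the counts, and its top cell gave 37.2%. Col18a1 was the most evenly spread, with 7.91% of its counts from the top cell and 31.4% from the top 5, and 46 cells were needed to reach 90% of its counts. Col16a1, a fibril-associated chain, with 14.2%, and Col7a1, the anchoring fibril chain, with 15.5%, came next among the collagens found in at least 10% of cells. Over the 25 collagens counted in at least 5 cells the median top-cell share was 29.3%, against 20.5% over all such genes, which were counted in more cells.

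At the other end stood collagens with most of their counts in 1 cell. Col9a3, a cartilage-type chain of type IX collagen, had 3688 counts, and 3687 of them lay in 1 cell of vehicle plate 2, at 3626 CPM. That cell had 0 counts of Tcfl5, the gene that overlaps Col9a3 on the other strand. Col19a1 had 98.3% of its counts in 1 cell, and Col8a1, a short-chain collagen, had 69.5% of its 239 counts in 1 of the 20 cells that held it. The highest plate level of each of these 3 genes was therefore mostly that of 1 cell.

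**Figure D2:**
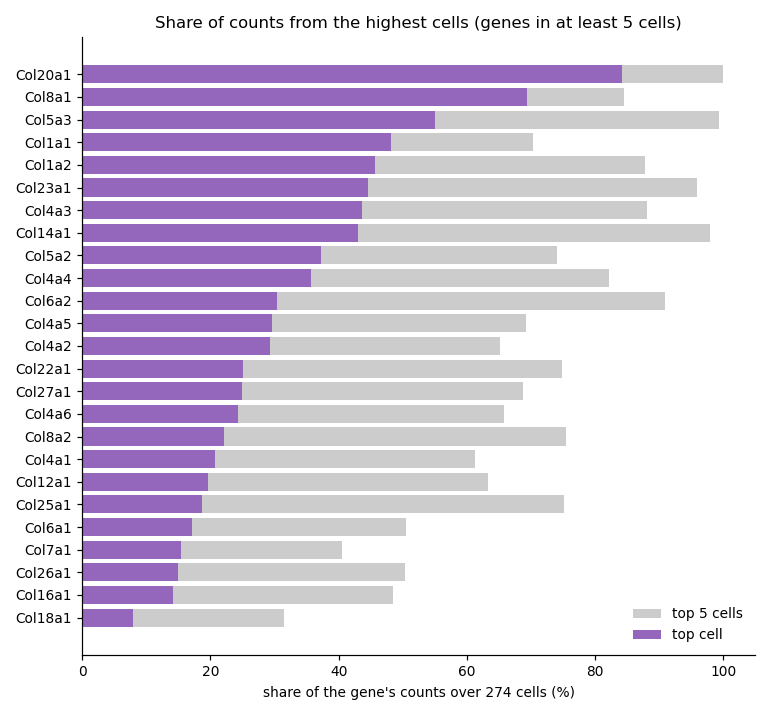
Share of each gene's counts (%, horizontal axis) given by its highest cell (purple) and by its 5 highest cells (grey), for the 25 collagen genes counted in at least 5 of 274 cells. Col18a1 has the smallest top-cell share at 7.91%.

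Levels between genes were compared per kilobase of exonic length (CPM per kb, mean of the 4 plates). Apart from Col9a3, at 8.72 CPM per kb from its 1 cell, the highest were Col5a2 at 6.90 and Col4a3 at 5.35, then Col12a1 at 2.23, Col18a1 at 2.20, Col4a5 at 1.61, Col16a1 at 1.60, Col6a1 at 1.42 and Col4a2 at 1.41. The plate ranges of all neighbours in this order overlapped, for example 1.73 to 12.7 for Col5a2 and 0.729 to 17.5 for Col4a3, so the order was not resolved by the plates. Col7a1 was at 0.540 CPM per kb, and Col1a2 and Col1a1 at 0.200 and 0.0306.

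The classes of collagen held by the plates were alike in kind and uneven in level. The 6 basement membrane network chains summed to 58.2 and 47.4 CPM on vehicle plates 1 and 2 and to 195.6 and 31.99 CPM on PRT4165 plates 1 and 2, and 77.8% to 88.3% of the cells of a plate held at least 1 of them. The 6 fibrillar chains summed to 13.7, 85.6, 63.4 and 30.97 CPM in the same order, of which Col5a2 was 83.6% to 98.7%. The 7 fibril-associated chains summed to 42.8, 153.9, 40.98 and 36.6 CPM, with Col9a3 giving 69.0% on vehicle plate 2 and Col12a1 the largest share on each of the other 3 plates. The remaining classes each stayed at or under 30.6 CPM on every plate.

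Among the basement membrane chains, Col4a3 stood at 6.23 and 19.9 CPM on vehicle plates 1 and 2 and at 150 and 6.77 CPM on PRT4165 plates 1 and 2. PRT4165 plate 1 was high and the other 3 plates low, so the treatments overlapped. Col4a5 was at 28.7, 2.77, 3.82 and 6.66 CPM, with vehicle plate 1 high. Col4a2 was at 3.998, 12.1, 12.7 and 7.45 CPM. Its partner in the ubiquitous type IV trimer, Col4a1, was at 0.582, 6.25, 1.25 and 8.70 CPM, and the second plate of each treatment was the higher. Col4a6, which pairs with Col4a5 in epithelial basement membranes, was at 4.62, 4.38, 3.93 and 2.02 CPM. On vehicle plate 2 and PRT4165 plate 1, 1 cell gave 63.8% and 81.5% of its counts. Without the top cell of each plate it stood at 3.09, 1.65, 0.738 and 1.65 CPM.

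Of the other collagens, Col7a1 had the smallest ratio of highest to lowest plate among those found in at least 10% of cells, at 3.88, 5.65, 6.53 and 3.94 CPM on vehicle plates 1 and 2 and PRT4165 plates 1 and 2. Col18a1 was at 6.13, 30.6, 10.1 and 13.0 CPM, high on vehicle plate 2. Col12a1 was at 39.98, 24.4, 23.1 and 21.04 CPM, high on vehicle plate 1, where 1 cell gave 69.2% of its counts. Without the top cell of each plate, Col12a1 stood at 9.5 to 12.5 CPM on all 4. Col5a2 was at 11.5, 84.5, 59.2 and 27.7 CPM, and 1 cell gave 84.5% of its counts on vehicle plate 2. Col6a1, a chain of the beaded filaments, was at 11.6, 4.55, 1.66 and 5.48 CPM. Col16a1 was at 0.582, 10.7, 15.8 and 6.11 CPM, low on vehicle plate 1, which was also the shallowest plate. Among the less often detected collagens, Col4a4 was at 14.1, 1.93, 23.8 and 0.385 CPM, and those other than Col4a4 and Col9a3 were at or under 7.91 CPM on every plate.

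**Figure D3:**
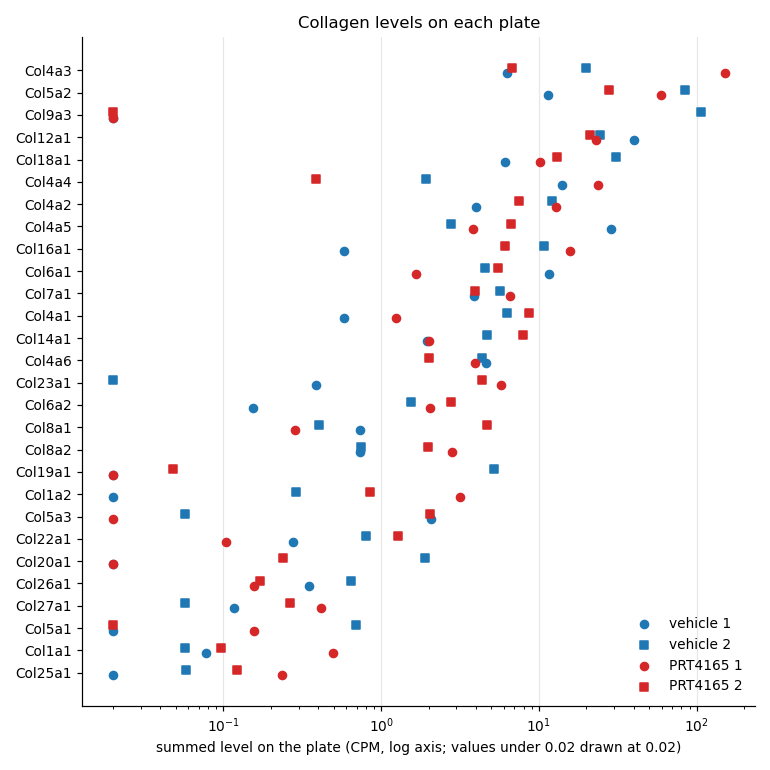
Summed level of each collagen gene on each plate (CPM, log axis, values under 0.02 drawn at 0.02), with vehicle in blue, PRT4165 in red, replicate 1 as circles and replicate 2 as squares. Col4a3 runs from 6.23 to 150 CPM within the 4 plates, and Col9a3 is near 0 on all plates but vehicle 2, at 106 CPM.

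Partner chains were found together to different degrees. Col4a1 and Col4a2 were both counted in 20 cells, which is 64.5% of the 31 cells with Col4a1 and 44.4% of the 45 cells with Col4a2. Of the 21 cells with Col4a4, 16 held Col4a3, a share of 76.2%, with Col4a3 itself in 72.6% of all cells. Col4a5 and Col4a6 were both counted in 6 cells, 14.0% of the 43 cells with Col4a5 and 18.2% of the 33 with Col4a6. Only 4 cells held both Col1a1 and Col1a2, and 4 both Col6a1 and Col6a2. After thinning, both chains were found in 11 cells for Col4a1 and Col4a2, in 8 for Col4a3 and Col4a4, and in 2 for Col4a5 and Col4a6. Cells with both chains of the first pair were deeper, with a median of 516467 counts against 414249 over all cells, and the part of depth in these shares was not tested.

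In the GENCODE M21 annotation of GRCm38 the 6 type IV genes lie in 3 head-to-head pairs on opposite strands. Col4a1 (chr8:11198423-11312826, minus strand) and Col4a2 (chr8:11312805-11449287, plus strand) have starts 21 bases apart and overlap there. Col4a3 (chr1:82586921-82722059, plus strand) and Col4a4 (chr1:82448423-82586849, minus strand) have starts 72 bases apart. The RefSeq starts of Col4a5 and Col4a6 on chromosome X are 1343 bases apart. The other main genes lie apart, with Col18a1 at chr10:77052178-77166548 (minus strand) and Col7a1 at chr9:108953586-108984875 (plus strand). Promoters, here the 250 bases before the RefSeq start in GRCm38.p6, were in the reference for 20 of the 28 genes, with 22 promoters. A gene was counted where any of its promoters held a motif, while the comparison counts single promoters. The GC box (GGGCGG, or CCGCCC on the other strand) was present for 15 of these 20 genes (75.0%), against 32.7% of 32851 promoters of the same length. CCAAT (or ATTGG) was present for 9 (45.0%), against 33.8%, and TATAAA (or TTTATA) for 0, against 12.4%. The median GC content was 61.4% over the collagen promoters and 52.4% over all promoters. A match of letters is a description and does not show that a factor binds. Of the promoters, 3 are printed 5′ to 3′ on the strand of the gene, to show what these windows hold, with GC boxes and CCAAT boxes of either strand in capitals.
Col7a1 promoter, chr9:108953336-108953585, + strand: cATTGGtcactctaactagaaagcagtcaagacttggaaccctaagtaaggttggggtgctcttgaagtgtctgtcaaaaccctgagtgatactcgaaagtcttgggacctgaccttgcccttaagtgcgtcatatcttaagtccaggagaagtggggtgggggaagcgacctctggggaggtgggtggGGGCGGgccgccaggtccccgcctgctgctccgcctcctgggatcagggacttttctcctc
Col16a1 promoter, chr4:130047590-130047839, + strand: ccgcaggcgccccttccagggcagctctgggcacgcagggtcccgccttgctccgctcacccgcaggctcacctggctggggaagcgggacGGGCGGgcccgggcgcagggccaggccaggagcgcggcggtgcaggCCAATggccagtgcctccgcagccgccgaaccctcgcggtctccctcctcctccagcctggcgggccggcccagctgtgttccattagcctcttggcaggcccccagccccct
Col4a6 promoter, chrX:141474077-141474326, - strand: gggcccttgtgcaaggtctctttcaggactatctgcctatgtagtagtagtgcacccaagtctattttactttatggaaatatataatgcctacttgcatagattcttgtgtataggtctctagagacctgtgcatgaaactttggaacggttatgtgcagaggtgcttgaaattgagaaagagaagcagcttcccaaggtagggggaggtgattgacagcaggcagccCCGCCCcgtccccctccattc
Col7a1 and Col16a1 held both motifs, and Col4a6 the GC box without CCAAT. No annotated exon lies in the windows of Col7a1 and Col4a6, and that of Col16a1 overlaps an exon of Gm12963, a gene of the opposite strand.

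Which keratinocytes held collagen RNA was asked with a marker score. Each cell was called basal where 9 basal markers, such as Krt5, Krt14 and Itga6, exceeded 9 suprabasal markers, such as Krt1, Krt10 and Krt79, and suprabasal otherwise. The score holds no gene of the list described here. It put 42, 32, 44 and 40 cells of vehicle plates 1 and 2 and PRT4165 plates 1 and 2 in the basal class and 116 cells in all in the suprabasal class, with 39 cells within 0.25 of the cut.

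Basal cells held collagen RNA more often. With all counts, 96.2% of basal cells and 102 of 116 suprabasal cells (87.9%) had a count of any collagen. After thinning to equal depth, which kept 110 of the suprabasal cells, 124 basal cells (91.2%) and 56 of 110 suprabasal cells (50.9%) had a count of any collagen. The difference within plates was 41.3 percentage points ± 3.50 (SD, n = 4 plates), higher in basal cells on 4 of 4 plates, with an exact two-sided sign-flip permutation p of 0.125, the smallest that 4 plates allow. Without Col4a3 the shares were 88.2% and 37.3%, and the difference was 50.9 points ± 2.34 (SD, n = 4 plates; exact permutation p = 0.125). At equal depth the median thinned cell held 2780 genes in the basal and 2521 in the suprabasal class. Over all 15006 genes compared in this way, the median difference was 1.44 points, and over the 28 collagens 5.02 points. The comparison of thinned shares was added after the data were seen.

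The split differed between genes. Col18a1 was found, after thinning, in 60 basal cells (44.1%) and 2 suprabasal cells (1.82%), a difference of 43.03 points ± 11.03 (SD, n = 4 plates). Col4a2 was found in 28 (20.6%) and 1 (0.909%), a difference of 19.7 points ± 5.51. Col7a1 was found in 25 (18.4%) and 2 (1.82%), and Col16a1 likewise in 25 and 2. Col5a2 was found in 31 (22.8%) and 6 (5.45%), Col12a1 in 30 (22.1%) and 9 (8.18%), and Col6a1 in 23 (16.9%) and 4 (3.64%). In all, 12 of 28 collagens had a higher share in basal cells on all 4 plates, against 14.6% of all genes, and 0 had a lower share on all 4, against 6.61%. The widely detected Col4a3 was less split, with 39 basal cells (28.7%) and 24 suprabasal cells (21.8%), higher in basal cells on 3 of 4 plates.

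Summed levels were likewise higher in basal cells for most of these genes. Col18a1 stood at 14.1, 54.7, 19.9 and 23.8 CPM in the basal cells of vehicle plates 1 and 2 and PRT4165 plates 1 and 2, and at 0.961, 0.0653, 0.904 and 4.37 CPM in the suprabasal cells of the same plates. The classes did not overlap. Col7a1 stood at 8.87, 10.1, 11.7 and 8.71 CPM in basal and at 0.641, 0.00, 1.71 and 0.1299 CPM in suprabasal cells, again with no overlap. Col4a2 stood at 10.1, 21.5, 26.4 and 14.8 CPM in basal cells and at most 1.60 CPM in suprabasal cells. Col4a5 showed no such order, with 16.1, 2.99, 7.17 and 7.14 CPM in basal and 37.0, 2.48, 0.703 and 6.28 CPM in suprabasal cells. Of its suprabasal counts, 1 cell gave 64.5% on vehicle plate 1 and 93.8% on PRT4165 plate 2. After thinning, Col4a5 was found in 22 basal cells (16.2%) and 9 suprabasal cells (8.18%), with a higher share in basal cells on all 4 plates. Of the 28 genes, 13 were higher in basal cells on all 4 plates, against 20.8% of the 15019 genes, and 0 were lower on all 4, against 5.35%.

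**Figure D4:**
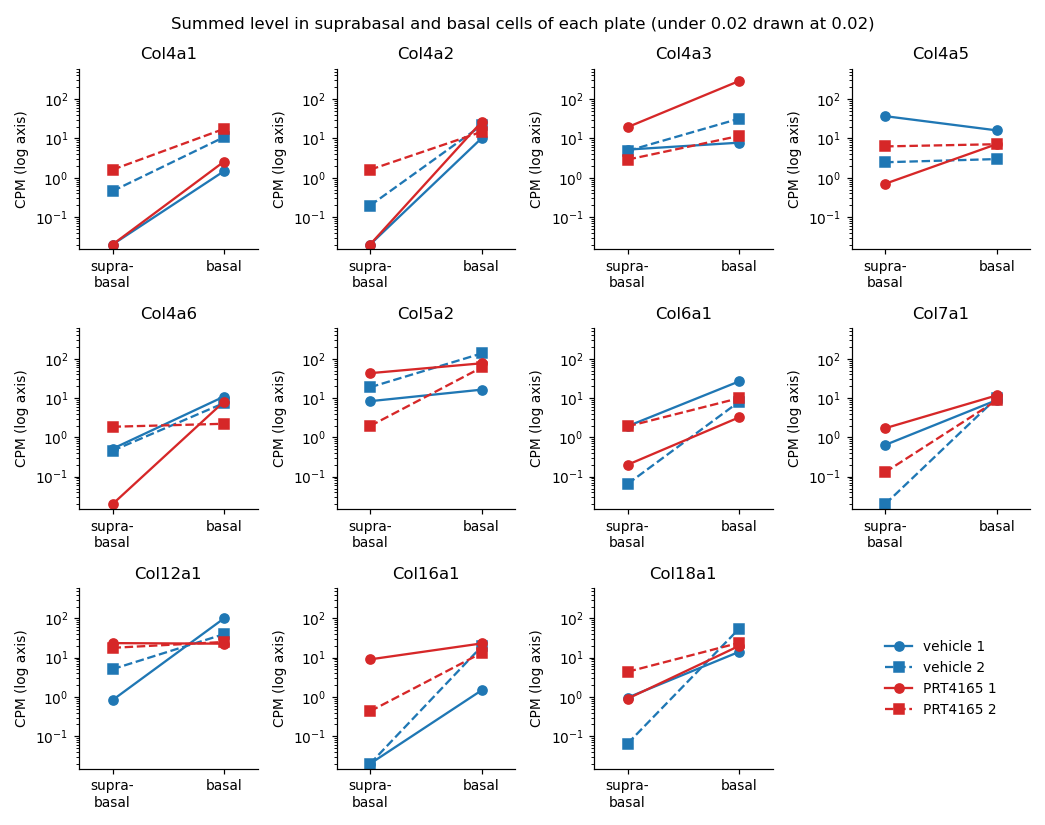
Summed level (CPM, log axis, values under 0.02 drawn at 0.02) in the suprabasal and basal cells of each plate for the 11 collagen genes counted in at least 10% of cells. The lines of Col18a1, Col7a1 and Col4a2 rise on all 4 plates, and those of Col4a5 do not share a direction.

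In the edgeR quasi-likelihood fit over all genes, with the plate as a block, these differences were large but did not pass the threshold. Of 11091 genes tested, 1.16% were called at an adjusted p of 0.05, with 16 higher and 113 lower in basal cells. Of the 15 collagens that passed the filter on low counts, 0 were called and 8 were under 0.05 unadjusted, against 15.6% of genes. This filter could be passed on the counts of 1 class alone. Col14a1, with no suprabasal count, passed it on its basal counts, so it could only be higher there. The estimates, as log2 fold change, were 6.65 ± 1.72 (SE) for Col4a2, 4.71 ± 1.35 for Col4a1, 4.46 ± 1.57 for Col7a1, 3.94 ± 1.28 for Col18a1 and 3.47 ± 1.12 for Col6a1, with adjusted edgeR p-values from 0.116 to 0.223. Col4a5 was at 0.03 ± 0.90. Fitted with no filter on low counts, so that all 28 genes were kept, 24 collagens were higher in basal cells, against 57.2% of all genes, with a median log2 fold change of 2.45 against 0.24 over all genes. In that fit 11 collagens were under an unadjusted 0.05, against 13.9% of all genes, and 0 passed adjustment, against 1.61%. DESeq2 on the same sums called 9 collagens, all higher in basal cells (Col4a1, Col4a2, Col4a3, Col4a6, Col6a1, Col7a1, Col14a1, Col16a1 and Col18a1), against 16.3% of all genes called. The mean CPM over cells, tested with limma, called 5 against 6.99%.

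Col14a1, Col6a2 and Col23a1 had no count in any suprabasal cell. Col14a1, a fibril-associated chain, had 618 counts in 10 basal cells and was at least 229-fold higher there, taking 3 counts over the whole suprabasal class as the floor. On PRT4165 plate 2, 1 cell held 266 of these counts, and without that plate the bound was 101.8-fold. Col23a1, a transmembrane collagen, had 413 counts in 12 basal cells, at least 152.8-fold higher. It had 10, 0, 221 and 182 counts in the basal cells of the 4 plates, and 1 cell gave 83.3% and 90.1% of those on PRT4165 plates 1 and 2. Without either of these plates its bound was 71.97-fold and 81.4-fold. Col6a2 had 253 counts in 14 basal cells, at least 93.6-fold higher, and at least 48.3-fold without PRT4165 plate 2. Leaving out a plate was added after the data were seen. These folds cover counting error only, and with these genes set at their bounds the median over the 28 collagens was 2.45.

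Markers of some other cell types moved with the basal class. The 5 fibroblast markers in the table summed to 27.6, 85.8, 182 and 24.1 CPM in basal cells and to 1.15, 2.46, 0.577 and 7.14 CPM in suprabasal cells, and 54 of the 62 cells with a fibroblast marker at 10 CPM were basal. When those 62 cells were left out, a step added after the data were seen, Col4a2 was at 6.82 ± 1.81 on the log2 scale (SE), Col18a1 at 4.08 ± 1.25, Col7a1 at 4.30 ± 1.43 and Col6a1 at 3.60 ± 1.23, while Col4a3 was at 0.79 in place of 1.78, and 0 collagens were called by edgeR. The 3 pericyte and smooth muscle markers in the table summed to 15.8, 24.0, 14.6 and 14.9 CPM in basal cells and to at most 0.390 CPM in suprabasal cells. Over whole plates nearly all of this sum was Cspg4, and Acta2 and Tagln were counted in 8 and 3 cells. The 3 melanocyte markers summed to 4.24, 7.63, 9.95 and 1.38 CPM in basal cells and to at most 0.704 CPM in suprabasal cells. The immune marker in the table, Ptprc, counted in 13 cells, went the other way. It was at most 0.0539 CPM in basal cells and at 0.192, 0.718, 0.100 and 1.99 CPM in suprabasal cells. The part of these pericyte and melanocyte markers in the result was not tested. Basal cells were also the shallower class on every plate, for example with a median of 94535 against 229430 counts on vehicle plate 1.

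A second score asked which collagens went with markers of the bulge, the stem cell niche of the lower hair follicle. It used 8 markers such as Cd34, Lhx2 and Sox9, and put 104 cells above and 170 at or below 0, with 44.5% of all cells within 0.25 of the cut. Col8a2 was at 1.77, 1.92, 11.6 and 7.45 CPM in the high class of vehicle plates 1 and 2 and PRT4165 plates 1 and 2, and at most 0.0462 CPM in the low class. All 10 cells with Col14a1 and 15 of the 16 cells with Col8a2 were in the high class. Col18a1 was at 7.93, 65.04, 29.1 and 34.8 CPM in the high and at 4.85, 9.83, 3.95 and 5.20 CPM in the low class. The summed level of Col12a1 went the other way. It was at 24.0, 7.97, 4.27 and 14.9 CPM in the high and 51.4, 34.3, 29.1 and 23.2 CPM in the low class. Its share of cells did not follow this order. After thinning, Col12a1 was found in 16.3% of the high class and 15.6% of the low class, higher in the high class on 2 of 4 plates.

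In all, 8 collagens had a higher summed level in the high class on all 4 plates, against 7.62% of all genes. A lower summed level on all 4 was found for 1, Col12a1, against 5.79%. After thinning, Col18a1 was found in 42.4% of the high class and 14.9% of the low class, a difference of 27.8 points ± 8.68 (SD, n = 4 plates, exact permutation p = 0.125), and 8 collagens had a higher share on all 4 plates, against 8.66% of all genes, and 0 a lower one, against 3.62%. Here too the filter on low counts could be passed on the counts of 1 class alone. edgeR called 0 of 10946 genes (0.0%), with 5.42% of genes and 7 of the 15 collagens tested under an unadjusted 0.05. Among these, the log2 fold changes were 4.05 ± 1.38 (SE) for Col4a4, 3.45 ± 0.75 for Col4a3 and 2.73 ± 0.84 for Col7a1. Col18a1 was at 2.18 ± 0.70 and Col12a1 at -1.76 ± 0.66. Col14a1 had 0 counts in the low class. Col8a2 was counted in 1 of the 170 low-class cells, so its fitted 8.10 ± 1.68 is no measure of size. With no filter, 20 of 28 collagens were higher, against 45.5% of all genes, and 8 were under an unadjusted 0.05, against 5.19%. DESeq2 called 6 collagens, all higher, against 3.03% of genes, and limma on mean CPM called 0, against 0.219%. Without the 62 cells with a fibroblast marker, Col18a1 was at 2.21 ± 0.83, Col4a3 at 2.05 ± 1.53, Col7a1 at 1.55 ± 1.46 and Col12a1 at -1.33 ± 0.92. The fitted value of Col8a2, 8.54 ± 1.78, is again no measure of size.

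The comparison the plates were made for, PRT4165 against vehicle, showed no collagen past the threshold. The collagens summed to 138.8 and 331 CPM on the vehicle plates and 329.6 and 136.2 CPM on the PRT4165 plates, a mean difference of -2.09 CPM (PRT4165 minus vehicle, exact two-sided permutation p = 0.667, where 2 against 2 plates cannot go below 0.333). With 1 plate left out, the difference ran from -98.8 to 94.6 CPM. The treatments overlapped. Without the top cell of each gene on each plate, the sums were 70.1, 83.3, 171.9 and 72.3 CPM. After thinning, 72.9% and 70.4% of the cells of the vehicle plates and 72.1% and 76.4% of those of the PRT4165 plates had a count of any collagen, a difference of 2.63 points (exact permutation p = 0.667).

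By gene, edgeR called 0 of 12791 genes (0.0%), and 630 genes (4.93%) and 1 of the 21 collagens tested were under an unadjusted 0.05. That gene was Col23a1, at 0.388 and 0.00 CPM on the vehicle plates and 5.75 and 4.38 CPM on the PRT4165 plates, and its log2 fold change was 4.62 ± 1.89 (SE) at an adjusted edgeR p of 0.996. Its counts came from 3, 0, 4 and 5 cells, and 1 cell gave 83.3% and 90.1% of them on PRT4165 plates 1 and 2. Col4a3 followed with 2.63 ± 1.23, and was at -0.79 ± 1.22 without PRT4165 plate 1. Col1a2, at the plate levels given above, was at 3.84 ± 1.94 (adjusted edgeR p = 0.997), and at 2.69 to 4.48 without vehicle plate 1 or either PRT4165 plate. Without vehicle plate 2 no vehicle count of Col1a2 was left, and the fitted value of 9.08 is no measure of size. Without the 62 cells with a fibroblast marker, Col23a1 was at 0.58 ± 1.94, Col4a3 at 0.07 ± 1.01 and Col1a2 at 2.06 ± 1.91. Col12a1 was at -0.55 ± 0.70, Col18a1 at -0.54 ± 0.91, Col7a1 at 0.18 ± 0.998 and Col5a2 at -0.03 ± 0.88. With no filter on low counts, 16 of the 28 collagens were higher, against 49.8% of all genes, 2 were under an unadjusted 0.05, against 5.06%, and 0 passed adjustment. Both PRT4165 plates were above both vehicle plates for 7 collagens, against 15.4% of all genes, and below them for 3, against 16.1%. The 7 were Col1a1, Col1a2, Col6a2, Col8a2, Col23a1, Col25a1 and Col27a1, each found in at most 16 cells, and the 3 were Col4a6, Col12a1 and Col26a1. DESeq2 called 0 collagens, against 1.36% of all genes.

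**Figure D5:**
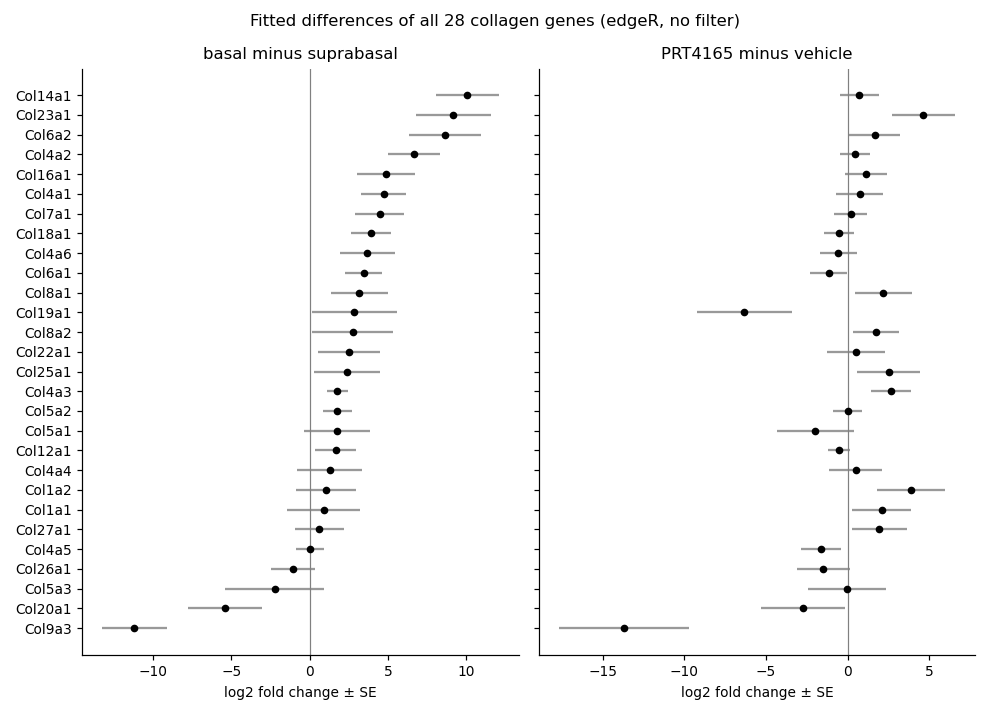
Log2 fold change ± SE (horizontal axis) of all 28 collagen genes in the edgeR fits with no filter, basal minus suprabasal (left) and PRT4165 minus vehicle (right), in the order of the left panel. On the left 24 genes lie above 0, on the right 16.

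Whether PRT4165 altered the difference between basal and suprabasal cells was tested as an interaction. edgeR called 0 of 11091 genes (0.0%), with 3.33% of genes and 1 of the 15 collagens tested under an unadjusted 0.05. This was Col12a1, with an interaction of -4.91 ± 1.83 on the log2 scale (SE, adjusted edgeR p = 1.0). Its basal cells stood at 100 and 39.6 CPM on the vehicle plates and 22.7 and 25.1 CPM on the PRT4165 plates, and its suprabasal cells at 0.833 and 5.09 against 23.5 and 17.8 CPM. Of its basal counts, 1 cell gave 70.1% and 68.4% with vehicle (plates 1 and 2), and 39.2% and 42.2% with PRT4165. In suprabasal cells, 1 cell gave 98.7% and 98.8% of the counts on PRT4165 plates 1 and 2.

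The genes that build, bind and degrade collagen, and its partners in the basement membrane, were detected to very different degrees. Of 56 genes listed for collagen folding, processing, cross-linking, binding and degradation or as basement membrane partners, 43 were in the table. P4ha1, a catalytic subunit of prolyl 4-hydroxylase, was counted in 245 cells (89.4%), Ppib, a prolyl isomerase, in 244 (89.1%) and P4hb, the other hydroxylase subunit, in 68.6%. The collagen chaperone Serpinh1 was counted in 50 cells (18.2%), the prolyl hydroxylase subunit P4ha2 in 10 (3.65%), the prolyl 3-hydroxylase P3h1 in 4 (1.46%) and the lysyl hydroxylase Plod2 in 1 (0.365%). In the comparison of basal with suprabasal cells, 0 of the 27 genes tested were called by edgeR, against 1.16% of all genes. Of the 27, 21 were higher in basal cells, against 53.7%, and 9 were under an unadjusted 0.05, against 15.6%. Of these 9, Hspg2, Sparc, Agrn, Lama5 and Lamb1 were listed as basement membrane partners. The others were the receptors Itgb1 and Itga2, the cross-linking gene Loxl2 and the chaperone Serpinh1. The filter on low counts could be passed on basal counts alone. Fitted with no filter, which kept all 43 genes, 31 were higher in basal cells, against 57.2% of all genes. In that fit 13 were under an unadjusted 0.05, against 13.9%. DESeq2 called 10 of the 27, all higher in basal cells, against 16.3% of all genes. Limma on mean CPM called 6, all higher, against 6.99%. The 4 of smallest p were Itgb1, a subunit of the collagen-binding integrins, at 3.55 ± 0.84 on the log2 scale (SE), Hspg2, the basement membrane proteoglycan perlecan, at 6.38 ± 1.66, Sparc, a collagen-binding matrix protein, at 8.06 ± 2.17 and Agrn, agrin, at 4.34 ± 1.34. Sparc was at 88.3, 218.2, 98.2 and 85.5 CPM in basal cells and 0.00, 0.718, 0.00 and 27.8 CPM in suprabasal cells.

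For PRT4165 against vehicle, 0 of 36 genes of this list were called, against 0.0% of all genes, and 14 were higher, against 49.4%. The 4 of smallest p were Nid1, the basement membrane linker nidogen, at -5.36 ± 1.99 on the log2 scale (SE), counted in 5 cells, Lamb1, a laminin chain, at 2.87 ± 1.33, P3h4, of the prolyl 3-hydroxylase complex, at -2.58 ± 1.20 and P4ha2 at -2.73 ± 1.502. Nid1 stood at 0.543 and 1.96 CPM on the vehicle plates and at 0.0520 and 0.00 CPM on the PRT4165 plates. Its fitted value is therefore no measure of size. For the bulge score, 0 of 27 were called by edgeR, against 0.0% of all genes, and 21 were higher, against 46.2%, while DESeq2 and limma called 1 each, against 3.03% and 0.219%. The 4 of smallest p were Sparc at 3.03 ± 0.63, Mmp14, a membrane-bound collagenase, at 2.21 ± 1.12, Pcolce2 at 2.40 ± 1.42 and Hspg2 at 1.49 ± 0.89. With no filter on low counts, 32 of 43 genes were higher for this score, against 45.5% of all genes. In that fit 1 was under an unadjusted 0.05, against 5.19%. For the interaction, 0 of 27 were called, and Lama5 at 5.13 ± 2.28, Mia3 at -3.05 ± 1.57, Mmp14 at -4.43 ± 2.49 and Lamb1 at -4.07 ± 2.81 had the smallest p.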

How the data were processed

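Per the labels and the study's methods, the authors quantified reads per transcript with Salmon (0.13.1) and deposited estimated counts per gene and cell, with no scaling. The labels name the builds mm10 and GRCm38. In the deposited file, 18.3% of values above 0 were not whole. All 289 columns matched a sample by title. Cells were kept with at least 1000 genes and at most 50% mitochondrial counts, the limits of the study, which removed 15. The highest correlation between 2 cells was 0.946, and no library was treated as a duplicate. No doublet caller was run, since wells held single sorted cells. The members, lists and tests were chosen with earlier results of these data known.

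Estimated counts were summed per plate, or per plate and class, and rounded. Low genes were removed with filterByExpr, libraries were scaled by TMM, and edgeR 4.0.16 (quasi-likelihood test, R 4.3.3) gave p-values, adjusted after Benjamini and Hochberg and called at 0.05. DESeq2 1.42.0 and limma 3.58.1 were alternatives. An SE is the log2 fold change divided by the square root of F. Class scores were differences of mean z values of log2(CPM + 1) over markers, and the bulge score a mean z value. Single values were compared by exact permutation over plates. Genes named with plate values were those counted in at least 10% of cells or at 10 CPM on every plate, Col1a1, Col1a2, Col3a1 and Col7a1, the 3 of largest top-cell share with at least 100 counts on a plate, and any gene called, and of the collagen-building list the 4 of smallest p. Col14a1, Col6a2, Col23a1, Col8a2 and Col4a4 were named after their values were seen.

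The labels' batch tag pairs the plates by replicate number, and the deviations of same-numbered plates from their group means correlated at 0.0414 over 13105 genes. Lengths came from GENCODE M21 and promoters from RefSeq GRCm38.p6. The scripts were tested on simulated data. At the fitted spread between plates, edgeR recovered 0% of 4-fold and 1% of 16-fold changes for PRT4165 against vehicle. It recovered 0% and 23% for basal against suprabasal cells, and 1% and 33% for the bulge score. A result of 0 genes called therefore does not show that a gene was unchanged. Since PCR copies cannot be told from molecules here, an interval or floor reflects counting error alone.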

Additional observations from a re-analysis of the deposited data

How the results depend on the processing

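For the 34 log2 fold changes of named collagens, 475 alternative values were computed, of which 435 kept the direction and the side of the threshold, 15 passed it (with DESeq2 or limma) and 25 changed sign. The cause of these differences was not tested. DESeq2 called 1.36% of genes for PRT4165 against vehicle, 16.3% (1812 genes) and 9 collagens for basal against suprabasal cells, and 3.03% (332) and 6 collagens for the bulge score, where edgeR called 0.0%, 1.16% and 0.0% and 0 collagens. Limma on mean CPM called 6.99% (775 genes) and 5 collagens for basal cells and 0.219% (24) for the bulge score. For basal cells, edgeR called 3.37% (374 genes) and 1 collagen with no plate block, 241 genes with no filter, 0.693% (76) with cells of at least 100000 counts, 84 genes without cells with a fibroblast marker, and 0.259% to 0.362% with 1 plate left out (41 genes without vehicle plate 1, 29 without vehicle plate 2, 40 and 33 without PRT4165 plates 1 and 2).

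Sign changes for PRT4165 against vehicle were Col4a1 at -0.0088 with limma, and Col5a2 at 0.0046 with all cells, 0.028 with cells of at least 100000 counts (deep cells) and 0.41 with the replicate block. With 1 plate left out, the values ran from -1.35 to 3.03 for Col4a1, -0.10 to 1.22 for Col4a2, -0.79 to 3.57 for Col4a3, -2.54 to 1.11 for Col4a5, -0.80 to 1.79 for Col5a2, -0.16 to 0.46 for Col7a1, -0.96 to 0.032 for Col12a1 and -1.22 to 0.82 for Col18a1. The replicate block called 0 genes and changed no other call. For basal cells, Col4a5 was at -1.01 with no plate block, -0.0195 with deep cells and -0.22 without cells with a fibroblast marker, and at -0.65 to 0.68 with 1 plate left out. For the bulge score, Col4a2 was at -0.062 with deep cells and at -0.51 to 1.79 with 1 plate left out, Col4a5 at -0.36 with no plate block, Col6a1 at -0.34 with deep cells and at -0.16 to 0.74 with 1 plate left out, and Col12a1 at 0.071 when the ends of the score were compared and its middle left out. The difference in cells with any collagen was -0.397 points at a minimum of 5 counts, -1.90 with no thinning and 7.97 without Col4a3, an alternative chosen after the data were seen, as were those without cells with a fibroblast marker.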
